A study of Mus musculus with 8 samples.

Results

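*Rap1gap2*, *Rap1gap* and the exchange factor genes *Rapgef1*, *Rapgef2*, *Rapgef3*, *Rapgef4* and *Rapgef5* encode regulators of the small GTPase Rap. H3K27Ac, the acetylation of lysine 27 on histone H3 that marks active promoters and enhancers, was measured near these 7 genes. A peak was assigned to a gene when its centre lay nearest to a curated RefSeq transcription start of that gene in mm10. By this rule 68 of the 45980 peaks on chromosomes belonged to the 7 genes, with 11 at *Rap1gap2*, 1 at *Rap1gap*, 6 at *Rapgef1*, 23 at *Rapgef2*, 2 at *Rapgef3*, 9 at *Rapgef4* and 16 at *Rapgef5*.

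The libraries came from ventricles of mice at postnatal day 7. The comparison was between groups of 2 hearts, each with an H3K27Ac library and an input library, which makes 8 libraries. Control hearts were Arid1a f/f, with floxed *Arid1a* alleles and no Cre, and *Arid1a cKO* hearts carried the same floxed alleles together with αMHC-Cre, a transgene that acts in cardiomyocytes and not in the other cells of the ventricle. The controls carry no Cre, so loss of *Arid1a* and presence of the transgene cannot be told apart. The authors' table gives each peak's group mean as the log2 of normalised reads and holds 0 columns of values per heart. Depth and the spread between hearts are therefore unknown, no test was run, and every value below is an authors' mean or a difference of such means, *Arid1a cKO* minus control. The genes were chosen by this same difference, as seen in an earlier look at the table, so the values are a description. A peak is called lower or higher here when the difference was at least 1 on the log2 scale, which is 2-fold.

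Rap proteins are molecular switches that are active when bound to GTP. GTPase-activating proteins such as Rap1gap and Rap1gap2 switch them off by speeding GTP hydrolysis, and guanine nucleotide exchange factors of the Rapgef family switch them on by exchanging GDP for GTP. Active Rap promotes integrin adhesion and the assembly of cell junctions, and in cardiomyocytes it links cyclic AMP to calcium handling through the Epac proteins, which *Rapgef3* and *Rapgef4* encode.

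*Rap1gap2* lies on the minus strand of chr11:74383356-74610915 (mm10) and spans 227.6 kb. The annotation holds 4 curated starts, and a peak covered 1 of them, that of transcript NM_001364131 at position 74522801. The central 300 bases of the *Rap1gap2* peaks with the 3 highest control means are printed from the GRCm38.p6 reference, 5′ to 3′ on the strand of the gene, since no other peaks assigned to the gene by the rule had more H3K27Ac in controls. None of the 3 windows holds a base of a curated exon. Capitals mark a match to CACCTG, the E-box bound by ZEB and SNAI proteins, read here on the other strand.
Peak at the NM_001364131 start, chr11:74522814-74523113: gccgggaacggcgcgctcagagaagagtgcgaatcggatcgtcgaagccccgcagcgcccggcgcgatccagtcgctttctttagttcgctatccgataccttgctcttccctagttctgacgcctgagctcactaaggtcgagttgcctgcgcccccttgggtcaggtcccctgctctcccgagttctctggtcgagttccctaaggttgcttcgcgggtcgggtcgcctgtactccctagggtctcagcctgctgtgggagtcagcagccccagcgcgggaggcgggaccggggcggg
Intron peak 74.0 kb downstream, chr11:74448701-74449000: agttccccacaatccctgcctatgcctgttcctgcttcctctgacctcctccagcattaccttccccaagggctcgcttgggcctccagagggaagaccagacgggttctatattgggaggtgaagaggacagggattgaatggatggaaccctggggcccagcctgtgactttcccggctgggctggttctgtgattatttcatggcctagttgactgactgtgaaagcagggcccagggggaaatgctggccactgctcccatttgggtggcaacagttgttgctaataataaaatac
Intron peak 54.6 kb downstream, chr11:74468094-74468393: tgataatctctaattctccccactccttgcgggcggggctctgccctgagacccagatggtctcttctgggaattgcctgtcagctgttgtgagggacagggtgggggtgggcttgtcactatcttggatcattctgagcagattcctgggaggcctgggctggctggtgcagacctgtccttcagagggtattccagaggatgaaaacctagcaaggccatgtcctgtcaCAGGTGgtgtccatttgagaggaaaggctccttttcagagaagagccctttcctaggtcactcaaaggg
The window at the start is 65.0% G and C and holds 30 CpG dinucleotides. The windows in the introns are 54.3% and 54.7% G and C and hold 3 and 2 CpG.

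H3K27Ac at *Rap1gap2* had lower means in *Arid1a cKO* hearts at 9 of its 11 peaks and a higher mean, by the same threshold, at 0. Over all peaks, 10.6% were lower and 4.57% were higher, and 48.3% had a difference below 0. The median difference over the 11 peaks was −4.00, and −3.70 when group means under 3 normalised reads were raised to 3. Over all peaks the median was 0.01. In whole ventricles, fewer cells of a type and less of the mark per cell cannot be told apart.

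At the NM_001364131 start, the peak at chr11:74521444-74524483 had a control mean of 191 normalised reads and an *Arid1a cKO* mean of 14.7. The difference was −3.70 on the log2 scale, a mean 13.0-fold lower. Per kb of peak, these are 62.9 and 4.84 reads. Differences of this kind were uncommon at starts, as 1.7% of the 12022 peaks over a curated start were lower and 1.16% higher, against 13.8% and 5.78% of the 33958 peaks over none.

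Downstream of that start, in the introns, 6 peaks belonged to *Rap1gap2* and each had a lower *Arid1a cKO* mean. The peak at chr11:74447973-74449728 had 101 reads in controls against 0.946 in *Arid1a cKO* hearts, and that at chr11:74467253-74469234 had 71.0 and 0.946. The peak at chr11:74457205-74459685 had 70.0 and 0.946 reads. The value 0.946 is the lowest in the whole table, −0.08 on the log2 scale, so folds against it were taken against 3 reads and are lower bounds. On that basis the 3 peaks were at least 33.7-fold, 23.7-fold and 23.3-fold lower in the order 101, 71.0 and 70.0 reads in controls. In all, 6 of the 11 *Rap1gap2* peaks had an *Arid1a cKO* mean at or under 3 reads and a control mean above it, beside 1.58% of all peaks.

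Nearer to the start, the peak at chr11:74499154-74500308 went from 15.1 reads in controls to the table's lowest value and was at least 5.05-fold lower. The peak at chr11:74514376-74515853 had 39.9 reads in controls against 2.36 in *Arid1a cKO* hearts, a difference of −4.08. The smallest difference in size among the 9 lower peaks was −1.80, at chr11:74492489-74494665, where 51.3 reads in controls stood against 14.7. This peak also kept the highest *Arid1a cKO* level per kb of the 9, at 6.76 reads.

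Upstream of the start, the peaks split. Those at 4.26 and 12.8 kb had lower *Arid1a cKO* means, with 29.2 against 3.32 reads at the first, 8.82-fold lower, and 39.4 against 0.946 at the second, at least 13.1-fold lower. The next peaks upstream, at chr11:74546812-74547580 and chr11:74555551-74556774, had differences of 0.25 and 0.74. Their means were low in both groups, at 5.58 and 6.64 reads for the first and 10.5 and 17.5 for the second. The 3 other curated starts of *Rap1gap2* lay 2.25, 33.4 and 26.8 kb from the nearest peak, so the table gives no H3K27Ac value for them. For the start of NM_001015046, 33.4 kb from any peak, the 250 bases before the start are shown as a promoter of the same gene that no peak covered, with 70.0% G and C and 30 CpG and with a CACCTG match in capitals.
Before the NM_001015046 start, chr11:74590187-74590436, minus strand: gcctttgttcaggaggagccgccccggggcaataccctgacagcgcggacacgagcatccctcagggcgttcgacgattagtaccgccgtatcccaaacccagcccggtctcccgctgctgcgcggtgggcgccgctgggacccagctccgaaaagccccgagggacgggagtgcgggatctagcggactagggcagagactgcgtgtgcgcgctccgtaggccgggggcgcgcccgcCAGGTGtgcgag

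Beyond the 6 intron peaks, 5 more lay inside the *Rap1gap2* gene but nearer to the start of *Olfr412*, an olfactory receptor gene beyond its 3′ end. By the rule they are not *Rap1gap2* peaks. All 5 had lower *Arid1a cKO* means, with a median difference of −4.69, and −3.9 with means raised to 3 reads. Without that bound the differences ranged from −7.43 to −2.83. The widest, chr11:74431991-74436016, had 163 reads in controls and the table's lowest value in *Arid1a cKO* hearts, at least 54.4-fold lower. The peak next to it, at chr11:74437648-74439751, had 77.7 and 5.21 reads, 14.9-fold lower, and the last, in the exon at the 3′ end of the gene, had 67.2 and 0.946, at least 22.4-fold lower.

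Inside the gene there were thus 16 peaks, of which 14 were lower, and these 14 were consecutive along 151.5 kb. The median difference of the 14 was −4.39, and −3.73 with means raised to 3 reads. Consecutive lower peaks formed 3553 runs in the table, of which 3438 held 1 to 3 peaks. The longest held 14, which was reached by the run in *Rap1gap2* and by a run on chromosome 4 near *Ror1* and *Ube2u* with a median of −2.70, and the next longest held 10. In *Arid1a cKO* hearts, 279 of all peaks, 0.607%, had the table's lowest mean. Of the 21 among them with at least 64 reads in controls, 5 lay inside *Rap1gap2*.

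**Figure D1:**
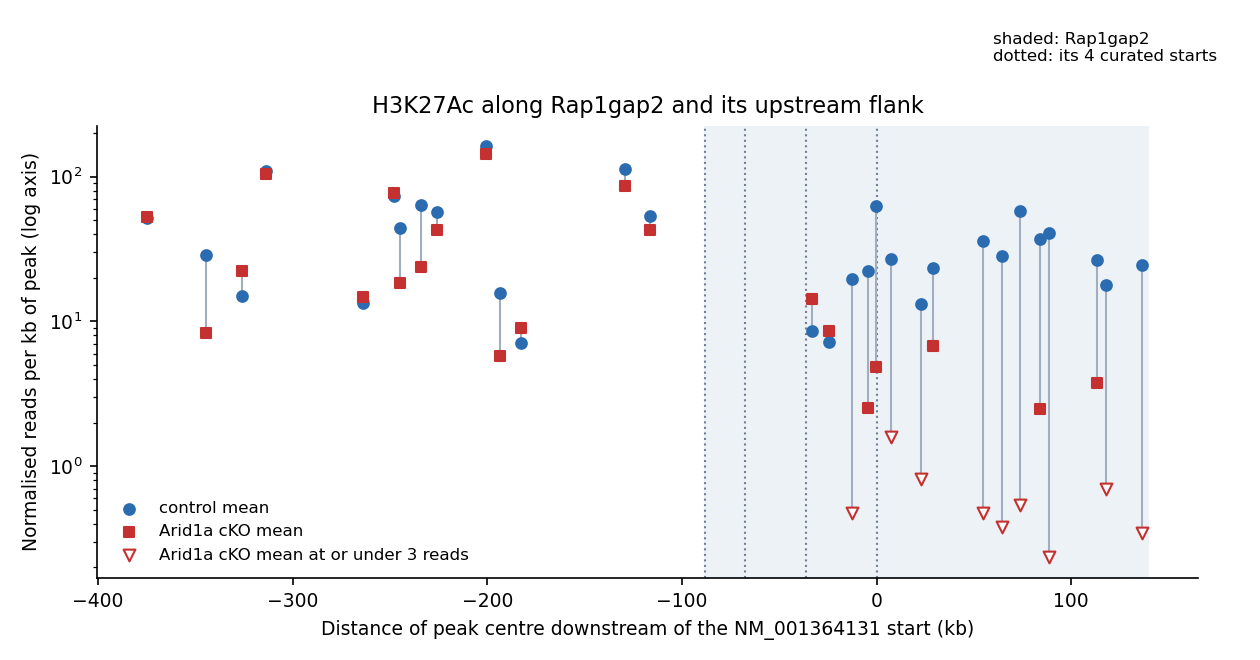
H3K27Ac of each peak along *Rap1gap2* and 300 kb of its upstream flank, as the authors' group mean in normalised reads per kb of peak on a log axis, against distance downstream of the NM_001364131 start in kb. Circles are controls, squares *Arid1a cKO*, and open triangles *Arid1a cKO* means at or under 3 reads. From −12.8 kb to the end of the gene all 14 peaks have lower *Arid1a cKO* means, and the 2 peaks further upstream in the gene do not.

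The unbroken run of lower peaks ended inside the gene on its upstream side. In the 300 kb beyond the first start of *Rap1gap2*, 14 peaks had a median difference of −0.26, with 4 lower and 0 higher. The 4 are 28.6% of the flank peaks, beside 10.6% of all peaks. The peak over the start of *Cluh* had 826 reads in controls against 635 in *Arid1a cKO* hearts, a difference of −0.38, and that over the start of *Pafah1b1* had a difference of −0.18. The 4 lower flank peaks were 1 in *Pafah1b1* with −1.45, 2 before *Mettl16* with −1.40 and −1.26, and 1 at *Mir6926* with −1.78. On the other side, the 300 kb beyond the 3′ end held 0 peaks.

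Among the 1200 genes with at least 8 peaks, *Rap1gap2* had the lowest median difference, also with means raised to 3 reads. The 5 genes most like it by this measure were *Gramd1b* with −2.06 over 11 peaks, *Gm6402* with −2.02 over 9, *Gsg1l* with −1.96 over 10, *Hdac4* with −1.79 over 17 and *Mir6417* with −1.78 over 9. Each of the 5 medians is smaller in size than that of *Rap1gap2*. In the same order of genes, *Rapgef5* ranked 553, *Rapgef2* 709 and *Rapgef4* 1161.

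*Rap1gap* encodes the closest relative of Rap1gap2 and acts on the same GTPases. It had 1 peak, at chr4:137723683-137725576, over the last of its 7 curated starts, that of the non-coding transcript NR_138592. The control mean was 40.2 reads and the *Arid1a cKO* mean 53.8, a difference of 0.42. The other 6 starts lay 16.2 to 59.0 kb from the nearest peak. The 1 peak of *Rap1gap* had 21.2 reads per kb in controls, against 62.9 at the *Rap1gap2* start and 23.3 at the upstream start of *Rapgef5*.

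The 5 exchange factor genes had 56 peaks, with 3 lower, 4 higher and a median difference of 0.08. Together with *Rap1gap*, the 6 genes other than *Rap1gap2* had 57 peaks, of which 5.26% were lower and 7.02% higher, beside 10.6% and 4.57% of all peaks. All 7 members together had 12 lower (17.6%) and 4 higher peaks (5.88%), and 9 of the lower ones were at *Rap1gap2*.

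**Figure D2:**
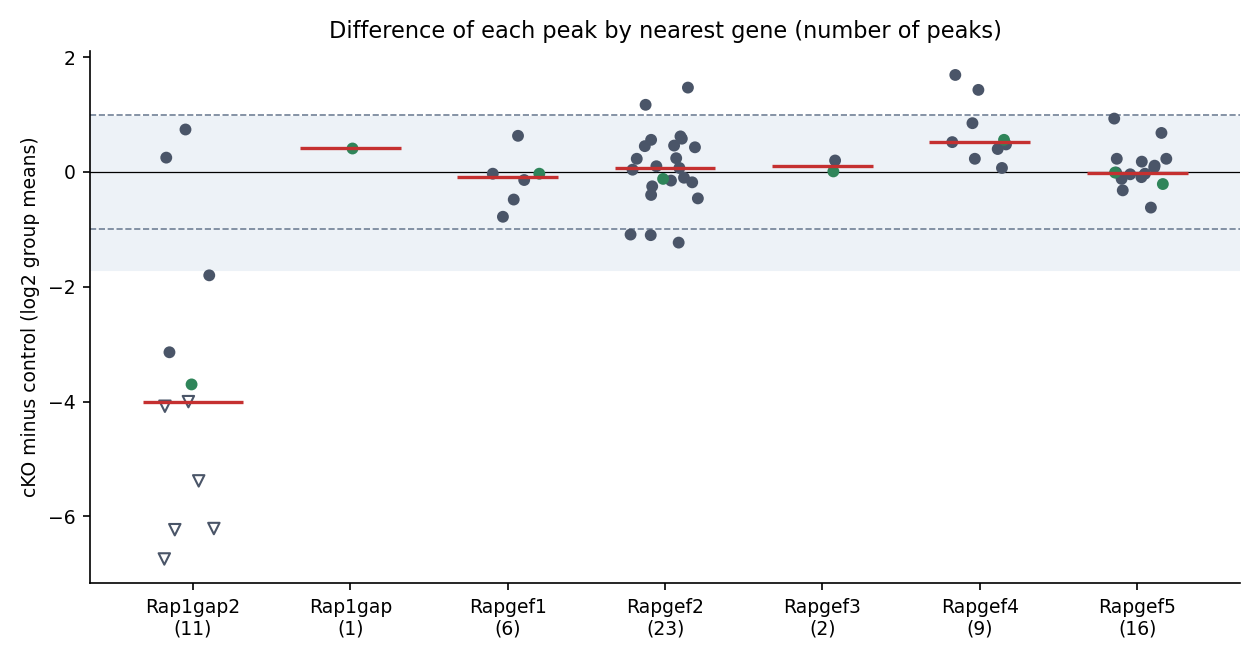
Difference of each of the 68 peaks, *Arid1a cKO* minus control on the log2 scale, by nearest gene, with the number of peaks under each name. Green circles are peaks over a curated start, open triangles peaks with an *Arid1a cKO* mean at or under 3 reads, red lines the gene medians, dashed lines the threshold of 1, and the shading runs from the 5th to the 95th percentile of all peaks, −1.7 to 0.95. The 9 lower peaks of *Rap1gap2* lie under the shading, and no other gene of the 7 has a peak there.

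*Rapgef1*, whose product is recruited to adhesion receptors by Crk adaptors, had 6 peaks in its introns or over its start on chromosome 2, with differences from −0.78 to 0.63. The peak over its start had 205 reads in controls against 201 in the mutants. Its widest peak, of 18692 bp at chr2:29632506-29651197, had log2 means of 10.51 and 10.48, or 78.0 and 76.4 reads per kb. H3K27Ac at the 2 strongest peaks of *Rapgef1* per kb thus differed by 0.03 in size.

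*Rapgef2* encodes an exchange factor with a PDZ domain. Its 23 peaks, 15 of them with a centre outside every curated transcript, had a median difference of 0.07. The peak over both of its starts, chr3:79143112-79147931, had 175 reads in controls against 161 in *Arid1a cKO* hearts.

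The 3 lower peaks of *Rapgef2* all lay on the downstream side of the start. At chr3:78966232-78968643, 178 kb away and outside the gene, the means were 133 and 56.9 reads, a difference of −1.23. In its introns, chr3:79070440-79072751 had 129 and 60.1 reads, a difference of −1.10, and chr3:79101493-79103394 had log2 means of 5.18 and 4.09, a difference of −1.09. The first was 2.35-fold lower, and the others were 2.14-fold and 2.13-fold lower, so all 3 sat just past the threshold. Both higher peaks were weak in controls, with 6.87 against 19.0 reads at chr3:78891060-78892232 and 9.06 against 20.4 at chr3:79074720-79075835. Weak peaks passed the threshold more often in both directions, as 15.9% of peaks with an overall mean under 32 reads were lower and 9.71% higher, against 6.92% and 0.966% of the rest.

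*Rapgef3* and *Rapgef4* encode Epac1 and Epac2, the exchange factors that cyclic AMP activates directly. *Rapgef3* had 2 peaks. That over its start, chr15:97761898-97769719, had 885 reads in controls against 891 in *Arid1a cKO* hearts, and the peak upstream had 296 and 340. At the start this was 113 and 114 reads per kb, the highest level of the 7 genes' start peaks in both groups.

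*Rapgef4* had 9 intron peaks, and all 9 had a difference above 0, from 0.07 to 1.69 with a median of 0.52. Over all peaks, 50.6% had a difference above 0. The peak over the start of its shorter transcripts, chr2:72053455-72057808, had 186 reads in controls against 274 in *Arid1a cKO* hearts, 1.47-fold higher. The start of its longer transcripts lay 57.1 kb from the nearest peak. Both higher peaks were weak in controls, at 13.1 against 42.2 reads for chr2:72038328-72039447, 3.23-fold higher, and 7.95 against 21.4 for chr2:72101950-72103141, 2.69-fold higher. The first holds the largest difference above 0 of the 68 peaks, and its central 300 bases are shown for that reason, with a TEAD core and a MEF2 match in capitals.
*Rapgef4* intron peak 15.7 kb upstream of the shorter start, chr2:72038738-72039037, plus strand: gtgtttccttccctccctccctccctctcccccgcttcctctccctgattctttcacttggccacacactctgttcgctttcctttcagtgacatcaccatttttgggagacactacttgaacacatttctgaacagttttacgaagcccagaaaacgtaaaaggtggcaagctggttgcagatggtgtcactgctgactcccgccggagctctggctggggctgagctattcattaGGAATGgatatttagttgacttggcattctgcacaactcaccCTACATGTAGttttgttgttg

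*Rapgef5*, which encodes a further exchange factor of the family, had 16 peaks with differences from −0.62 to 0.93 and a median of −0.01, and 0 of them passed the threshold in either direction. The peak over its upstream start had 39.9 reads in controls against 34.5 in *Arid1a cKO* hearts. The peak over its downstream start had 193 and 191. The widest peak of the gene, chr12:117655866-117667884 in an intron, had 820 and 885.

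**Figure D3:**
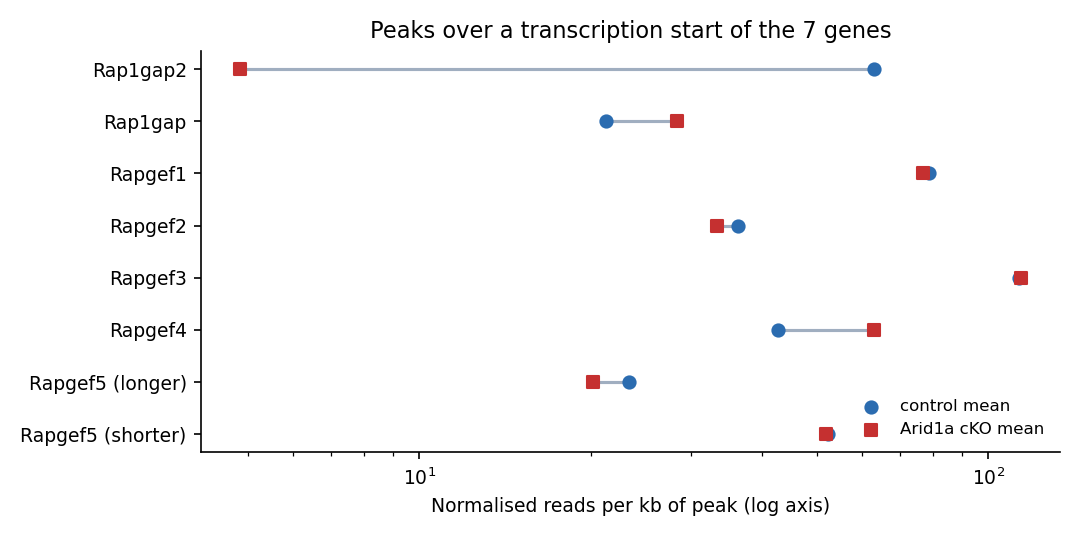
Group means of the peaks over a curated start of the 7 genes, in normalised reads per kb of peak on a log axis, with circles for controls and squares for *Arid1a cKO*. The *Rap1gap2* peak goes from 62.9 to 4.84 reads per kb, and the other 7 start peaks differ by at most 0.56 on the log2 scale.

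A list of 25 other Rap pathway genes was counted beside the members. All 25 had a peak, 10 of them only 1, and of their 145 peaks 14 were lower (9.66%) and 6 higher (4.14%), with a median difference of −0.03. The lower peaks lay at 7 genes and the higher ones at 5. Both shares are near those of all peaks.

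The Rap GTPases themselves had 12 peaks. Those over their starts differed little, with −0.04 at *Rap1a*, 0.10 at *Rap1b*, 0.00 at *Rap2a*, 0.22 at *Rap2b* and −0.13 at *Rap2c*. The 1 lower peak was a weak intron peak of *Rap1a* with 10.3 reads in controls against 1.89 in *Arid1a cKO* hearts. It is 8.33% of the 12 peaks, beside 10.6% of all peaks.

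Other GTPase-activating proteins for Rap, of the Sipa1 family, had 7 lower (12.5%) and 3 higher (5.36%) among 56 peaks. Over all peaks these shares were 10.6% and 4.57%. *Sipa1l2* held 5 of the lower peaks and 1 of the higher ones among its 37. The strongest lower peak, chr8:125537948-125540689 in an intron, had 388 reads in controls against 155 in *Arid1a cKO* hearts, a difference of −1.32, and its other lower peaks had differences of −2.72, −1.88, −1.42 and −1.05. Its higher peak had 2.95 and 9.51 reads. *Sipa1l1* had lower peaks with −1.99 and −1.12, the first with 2.38 reads in *Arid1a cKO* hearts, and *Sipa1l3* had higher ones with 1.11 and 1.03.

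The other exchange factors on the list had 6 lower (13.3%) and 1 higher (2.22%) among 45 peaks, beside 10.6% and 4.57% of all peaks. *Rapgef6*, the closest relative of *Rapgef2*, had lower peaks with −1.84 and −1.27. *Plce1*, a phospholipase that is also an exchange factor for Rap, had −1.32 and −1.06. *Rasgrp3* had 1 with −1.06, which lay in an intron of *Ltbp1*, 119 kb upstream of the nearest *Rasgrp3* start. *Dock4* had 1 lower with −1.74 and 1 higher with 1.07. The adaptors *Crk* and *Crkl* had 2 peaks and none past the threshold. The Rap effectors had 0 lower and 2 higher (6.67%) among 30 peaks. The 1 with 1.26 was nearest to *Afdn*, a junction protein, and lay in an intron of *Tcte2*, 28.0 kb upstream of the *Afdn* start. The other, with 1.07, was at *Rassf5*, which links Rap to integrins in leukocytes. Except the *Rapgef6* peak with −1.27, every peak past the threshold in this paragraph had an overall mean under 32 reads. Of all such weak peaks, 15.9% were lower and 9.71% higher.

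**Figure D4:**
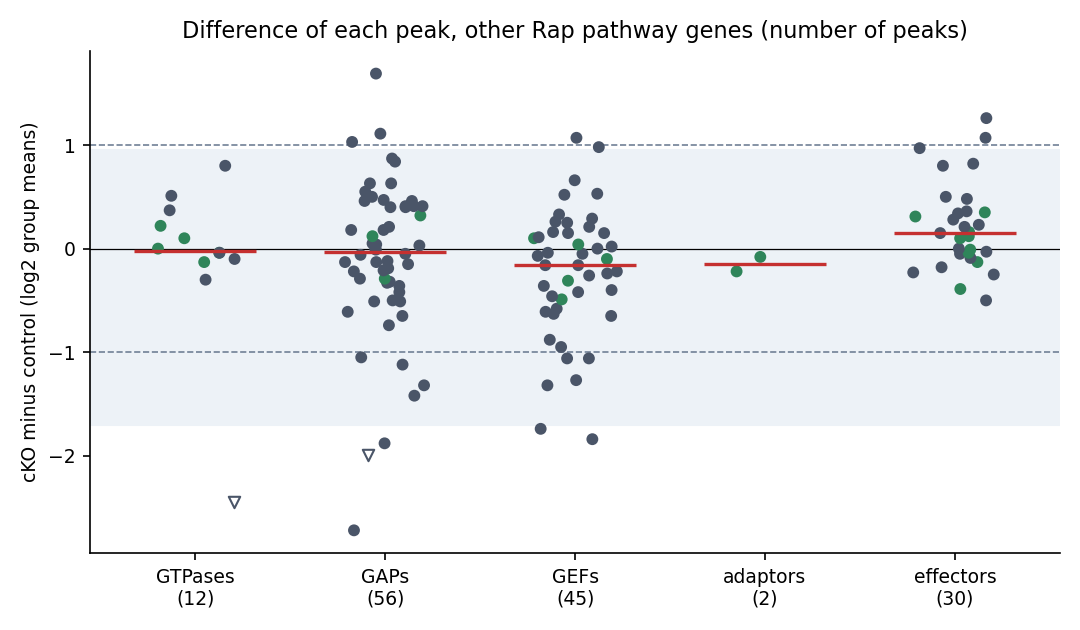
Difference of each of the 145 peaks of the other Rap pathway genes, *Arid1a cKO* minus control on the log2 scale, by role, with symbols, lines and shading as in the plot of the 7 genes. Most peaks of each role lie between the dashed lines, and the lowest value is −2.72.

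Short matches were counted in the 14 lower peaks inside *Rap1gap2*, on both strands. For MEF2, a muscle transcription factor, the pattern was CTA and TAG with any 4 bases between. This is looser than the MEF2 site, so a match need not be a MEF2 site. The other patterns were AAGGTCA (the half-site of ESRR receptors, regulators of mitochondrial genes), CACCTG (ZEB and SNAI), CATTCC (TEAD) and CACGTG (MYC). No motif of the 5 contains another. Per kb of whole peak, the MEF2 letters occurred 0.244 times against 0.175 in all peaks, the ESRR letters 0.417 against 0.23, CACCTG 1.22 against 0.776, CATTCC 0.591 against 0.612 and CACGTG 0.244 against 0.167. CACCTG was in all 14 peaks, beside 69.3% of all peaks. These are descriptions of few matches, with 7 for MEF2 and 12 for ESRR. In the central 300 bases, 0 of the 14 peaks held the MEF2 letters, beside 5.38% of all peaks, and 2 held the ESRR letters, beside 7.05%. For CACCTG the count was 2 beside 17.7%, for CATTCC 1 beside 16.7% and for CACGTG 1 beside 4.88%.

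The ESRR letters occurred most often, 3 times each, in 3 peaks that had the table's lowest *Arid1a cKO* mean, the exon peak at the 3′ end of the gene and the intron peaks at chr11:74457205-74459685 and chr11:74534553-74536555. Inside the gene, 8 peaks had this lowest mean. The rest of the 8, those with 163 and 101 reads in controls among them, held 0 ESRR matches. The matches of both intron peaks that held 3 are printed with 7 bases on each side and the motif in capitals, and those of the exon peak are left out since they lie in exon sequence.
chr11:74457368-74457388, minus strand: agggtcaAAGGTCAtggctag
chr11:74458547-74458567, plus strand: agacagaAAGGTCAgatgccc
chr11:74459267-74459287, plus strand: cctgctgAAGGTCAcacagcc
chr11:74536069-74536089, plus strand: gctcctcAAGGTCAaagcagg
chr11:74536267-74536287, plus strand: ctgttccAAGGTCActtgtgc
chr11:74536419-74536439, plus strand: acccggcAAGGTCAttcttct
The MEF2 letters occurred in 5 of the 14 peaks. Matches at chr11:74447973-74449728 read CTATGTGTAG and CTACAGTTAG, and that at chr11:74534553-74536555 reads CTACCTCTAG, and these are given without flanks. The matches in the start peak, which overlap each other, and in the peaks at chr11:74404038-74405404 and chr11:74437648-74439751 are printed likewise.
chr11:74524107-74524130, minus strand: cctagctCTAGTGGTAGctaggag
chr11:74524113-74524136, minus strand: ttctgccCTAGCTCTAGtggtagc
chr11:74405191-74405214, minus strand: atcctgaCTACATATAGtcatgta
chr11:74438473-74438496, minus strand: ctcaagtCTATTTATAGtcttaac

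Markers of the cell types of the ventricle were read from the same table. The 8 cardiomyocyte genes all had peaks, with 21190 reads summed over their peaks in controls and 19210 in *Arid1a cKO* hearts, and 3 of their 8 gene medians were above 0. Fibroblast genes, 6 of 6 with medians above 0, summed to 3259 and 4383 reads, and endothelial genes, 3 of 5 above 0, to 10810 and 10970. Smooth muscle genes summed to 447 and 775 reads. Of these 2 genes only *Acta2* had a median above 0, at 0.89, and *Myh11* had −0.085. Leukocyte genes, 2 of the 2 with a peak above 0, summed to 88.2 and 134, with no peak at *Adgre1*. The part of these cell types in the values of *Rap1gap2* and the other members was not tested. The peak over the *Arid1a* start had log2 means of 10.65 and 10.70, which does not check the deletion of the floxed exons.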

How the data were processed

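H3K27Ac ChIP-Seq libraries and inputs were made from ventricles of 2 control and 2 *Arid1a cKO* hearts. Per the submitters' processing notes and the paper's methods, reads were mapped to mm10 with BWA 0.7.17-r1188, peaks were called with HOMER against merged inputs and kept when found in at least 2 samples, and groups were compared by the authors in DiffBind 2.12.0 (DESeq2 1.24.0). The deposited values used are the log2 of the authors' mean normalised read count per peak and group. How libraries were scaled is not given in the sources used here. The table's fold change, p-value and FDR columns hold the authors' own comparison and were not used. It holds no value per heart, so depth and precision are unknown. With 2 hearts per group, an exact two-sided permutation test could not go below p = 0.333.

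The members, lists and motifs were chosen with earlier results of these data known. Peaks on unplaced sequences, 7 in number, were dropped. Starts came from 45756 curated RefSeq transcripts of GRCm38.p6. Peaks were classed by their centre, a promoter being the 1000 bp before a start and the first 100 bp after it. All 7 genes are named, pathway genes where a peak passed the threshold of 1, the start peaks of the GTPases, and the 5 genes with the lowest medians among those with at least 8 peaks. Flank genes, the chromosome 4 run and the *Rapgef4* sequence were chosen after their values were seen. Protein sequences were not used here. Sequence was read from the GRCm38.p6 reference and the steps were tested on simulated data, with Python 3.11.15, numpy 2.4.6, pandas 2.3.3 and matplotlib 3.10.9. Alternatives changed the threshold, a pseudocount, centring, a filter on low values and the assignment of peaks.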

Additional observations from a re-analysis of the deposited data

How the results depend on the processing

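Of 11 *Rap1gap2* peaks, 9 were lower with a median of −4.00. With only peaks of an overall mean of at least 32 reads, 5 of 5 were lower, beside 6.92% of all such peaks. Their *Arid1a cKO* means were 0.946 to 14.7 reads, so they passed this filter only through the control mean. The setting therefore adds no support, and the median of −6.21 is taken against 0.946 reads, without the 3-read bound. With 8 reads added to both means the median was −2.21, and with all peaks inside the gene 14 of 16 were lower. For the other 6 genes, the 3 lower peaks became 5 at a 1.5-fold threshold, by the nearest protein-coding start and for peaks inside the gene or 5 kb upstream, and 0 at 4-fold. Their median of 0.08 became −0.02 by the nearest start of any RefSeq transcript, −0.03 inside the gene and −0.01 with at least 32 reads, so its sign depends on the setting. For the pathway list, the 14 lower peaks became 22 at 1.5-fold, 2 at 4-fold, 8 with 8 reads added and 5 with at least 32 reads, and the 6 higher ones became 16, 0, 0 and 0 under these settings and 3 by the nearest start of any transcript. The cause was not tested. Centring subtracted 0.01 or −0.03 from all differences. Among the medians of single genes, that of *Rapgef2* lay below 0 under 5 settings, at the lowest −0.11, that of *Rapgef3* under 2, at −0.11, and that of *Rapgef5*, −0.01, above 0 under 2, at 0.02 and 0.095. That of *Rapgef1* went from −0.085 to −0.31 under 2 settings, and that of *Rapgef4* from 0.52 to between 0.395 and 0.41 under 3. For *Rap1gap2*, the other 6 genes and the pathway list, 37 values under the alternatives, the −0.01 among them, stayed within 1.5-fold for a count or 0.1 for a median. The remaining 19 did not. No paired analysis was possible because the table holds group means and no value per heart, and for the same reason no heart could be left out. Depth per heart is unknown, so how far low means can be read is limited to the 3-read bound used here.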
